A study of Caenorhabditis elegans with 28 samples.

Results

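The earliest stretch of larval development that the time course covered in both genotypes was compared here. It consisted of 4 wild-type libraries, collected 18, 19, 20 and 21 h after plating on food, and the 4 *ebax-1(tm2321)* libraries collected 3 h later, at 21, 22, 23 and 24 h. These are 8 of the 28 libraries of the study, and they were chosen by genotype and hour alone. The shift of 3 h is the developmental delay that the study applied to the mutant, so that wild type at 18 h was paired with mutant at 21 h, and so on for 4 pairs.

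The wild type was the Bristol strain N2 and the mutant was HW3527, which carries the deletion allele *tm2321* of *ebax-1* on chromosome IV. Larvae of both strains hatched without food, arrested as L1 larvae, and were then placed on plates with *E. coli* OP50 at 2000 worms per plate and 25°C without further treatment. Poly(A) RNA of whole animals was sequenced, with a single library per genotype and hour. Each genotype was therefore followed as a single time course, and a difference of genotype cannot be told apart from any other difference between the 2 time courses.

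EBAX-1, known as ZSWIM8 in mammals, brings substrates to a Cullin-RING ubiquitin ligase. The ligase clears aberrant SAX-3, a receptor that guides axons, and it takes part in target-directed microRNA degradation, in which a microRNA bound to certain targets is lost together with its Argonaute protein. Larval development of *C. elegans* is paced by a gene expression oscillator that runs once per larval stage, and a large part of the transcripts, those of cuticle collagens, molting enzymes and hedgehog-related proteins among them, rise and fall once in each stage. An hour of development therefore moves many transcripts, and animals can be compared only at a matched stage. Because the RNA is from whole animals, fewer cells of a type and less RNA per cell cannot be told apart.

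The 8 libraries held 5120921 to 8444858 counts, so that 1 CPM (the usual unit of counts relative to the library's total, here scaled by the trimmed mean of M values, TMM) rested on 5.06 to 8.13 counts. Between 4.94% and 5.67% of a library's counts came from its 10 most abundant genes. The matching of hours was described by correlating each mutant library with each wild-type library across 8203 genes of at least 10 CPM, as log2(CPM + 1) less each gene's mean over the 28 libraries. The highest of these correlations was with the wild-type library 3 h younger for all 4 mutant libraries, at r = 0.81 for 21 h, 0.81 for 22 h, 0.76 for 23 h and 0.79 for 24 h. The neighbouring hours did not lean the same way in all pairs. Mutant 24 h had r = 0.75 with wild type 2 h younger and 0.23 with wild type 4 h younger. Mutant 22 h had r = 0.41 and 0.59 in the same order, and mutant 23 h 0.38 and 0.47. Mutant 21 h had r = 0.68 with wild type 19 h, and the time course held no wild type 4 h younger. The points of these correlations are genes, which share libraries and are not independent replicates.

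*ebax-1* mRNA was examined first, since it checks the labels. Wild-type larvae had 34.3, 50.6, 94.9 and 139.8 CPM at 18, 19, 20 and 21 h, and the paired mutant larvae had 21.7, 23, 37.8 and 49.4 CPM. The level rose through the stretch in both genotypes and was lower in the mutant in 4 of 4 pairs, although the ranges of the 2 genotypes overlapped. The log2 difference, mutant minus wild type, was -1.18 ± 0.13 (SE, 4 pairs, adjusted p = 0.00934 in edgeR's quasi-likelihood test). The transcript was thus reduced but still counted. Counts were per gene, so where the mutant's reads lay relative to the deletion was not tested. With a shift of 2 h or 4 h the difference was -1.48 or -0.93.

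Which genes differed between the genotypes at this matched stage was tested with edgeR for 12236 genes, with each pair as a block, and a gene was called at an adjusted p under 0.05. The genotypes differed in 663 genes, of which 347 were higher and 316 lower in the mutant. These are 5.42% of the genes tested for both directions together, 2.84% for higher and 2.58% for lower. The median log2 difference of all genes tested was 0.02, and the median size among the called genes was 0.56. Higher calls reached further than lower ones, since 130 of the higher but only 25 of the lower genes differed by at least 2-fold. Of the 663 called genes 662 had the same sign in 4 of 4 pairs. A test with pairs as blocks favours such genes, so this count follows largely from the calling. It is not given here for all genes tested. For 357 of them the 4 CPM values of the mutant lay entirely outside those of wild type, which held for 8.8% of all genes tested.

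The number of called genes rested strongly on the choice of pairs. Without the pair of wild type 18 h 992 genes were called, and without the pair of 19, 20 or 21 h 42, 36 or 108 genes were called. Without the block of pairs 38 genes were called. With a shift of 2 h or 4 h in place of 3 h only 6 or 8 genes were called, although 650 of 659 and 655 of 656 called genes kept their sign. Of the 91 called genes of the naming rule that were followed through these fits, 70, 72 and 55 were not called without the pair of 19, 20 or 21 h. The count of called mitochondrial ribosomal proteins, given below, fell to 0 in each of these 3 fits. The balance of directions depended on the scaling, as 52.3% of the calls were higher in the mutant with TMM scaling, 73.8% with total counts, 67.3% in DESeq2 and 75.4% in limma on the deposited log2 values. Among 7440 genes that changed by under 0.2 log2 per hour in both genotypes, a subset chosen after seeing the data, 129 were called higher and 241 lower.

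**Figure D1:**
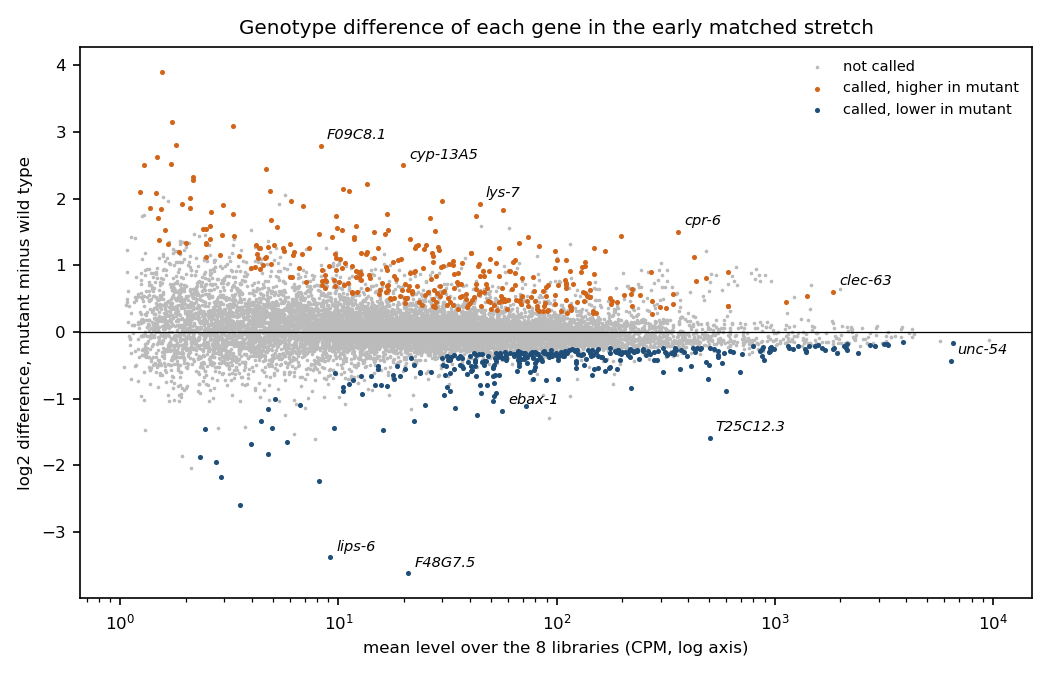
Each point is a gene, placed by its mean level over the 8 libraries (CPM, log axis) and its log2 difference, mutant minus wild type. The 347 genes called higher spread up to several log2 units above 0, and the 316 genes called lower form a narrow band just under 0 with few genes far below it.

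Among the genes that rose most in the mutant were a lysozyme, a secreted SCP-like protein, a lysosomal lipase, a cytochrome P450 and C-type lectins. *lys-7*, a lysozyme of the intestinal defence against bacteria, had 20.4, 16.40, 16.6 and 19.8 CPM in the 4 wild-type libraries and 65.6, 57.6, 65.6 and 92.9 CPM in the 4 mutant libraries. The lowest mutant value was above the highest wild-type value by a wide margin, and the log2 difference was 1.93 ± 0.10 (edgeR, adjusted p = 0.00155). *F09C8.1* showed the largest increase among called genes with a mean of at least 5 CPM, with 1.76, 1.78, 1.85 and 2.45 CPM in wild type and 10.9, 6.23, 11.6 and 29.8 CPM in the mutant. Values of both genotypes were highest in the last pair without overlap between the genotypes, and the log2 difference was 2.80 ± 0.27 (edgeR, adjusted p = 0.0063).

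*scl-2*, which encodes a secreted protein of the SCP-like family, stood at 10.3, 11.9, 10.2 and 14 CPM in wild type and at 27.1, 31.1, 51.5 and 82.8 CPM in the mutant. Wild type was nearly level, whereas each later mutant library was higher than the one before, so that the groups did not overlap (log2 difference 1.96 ± 0.22, edgeR adjusted p = 0.00902). *F17B5.1* had 3.4, 1.98, 2.58 and 8.17 CPM in wild type and 20.7, 14.6, 13.7 and 19 CPM in the mutant, again with no overlap (log2 difference 2.15). *Y41G9A.5* climbed through the stretch in both genotypes, from 4.65 to 53.9 CPM in wild type and from 26.5 to 126 CPM in the mutant. Its difference of 1.83 on the log2 scale was wider in the first pair than in the last (change per hour -0.49, edgeR adjusted p = 0.0473), and the ranges overlapped.

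Among the more abundant genes the most precise increases were those of *pho-14*, *clec-63*, *aagr-1*, *cpr-1* and *oac-14*. *pho-14*, of the acid phosphatase family, had 56.1, 57.5, 60.2 and 62.4 CPM in wild type and 150.2, 137, 133 and 128 CPM in the mutant. Wild type drifted up and the mutant drifted down over the 4 hours, and every mutant library was more than 2-fold above every wild-type library, with a log2 difference of 1.22 ± 0.08 (edgeR, adjusted p = 0.00255). *aagr-1*, an acid alpha-glucosidase relative, had 31.4, 34.8, 48 and 53.6 CPM in wild type and 65.2, 68.2, 83.3 and 99.2 CPM in the mutant, without overlap (log2 difference 0.92 ± 0.07). *oac-14*, of the acyltransferase-3 family, was lowest in the last library of both genotypes, from 50.1 to 13.6 CPM in wild type and from 126 to 44.7 CPM in the mutant, and was 1.33 log2 higher in the mutant. *cpr-1*, a cathepsin B-like protease of the gut, rose in both genotypes. Its difference of 0.77 at the 3 h shift became 0.18 at 2 h and 1.36 at 4 h, so its size rested on the matching.

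The largest decrease among called genes with a mean of at least 5 CPM and the same sign in 4 of 4 pairs was that of *F48G7.5*. This gene had 87.4, 55.5, 8.86 and 2.45 CPM in wild type and 8.31, 3.11, 0.636 and 0.535 CPM in the mutant. It fell steeply over the 4 hours in both genotypes, the mutant being lower in each pair (log2 difference -3.62 ± 0.21, edgeR adjusted p = 0.00155). The last 2 mutant values rest on a few counts each. *lips-6*, a lipase of the class 3 family, showed the same course, from 57 to 0.163 CPM in wild type and from 3.71 to 0 CPM in the mutant, with a log2 difference of -3.37 that moved to -1.51 at a 2 h shift.

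*T25C12.3* gave the lowest p-value of all genes tested. It stood at 684, 726, 822 and 789 CPM in wild type and at 266, 240.3, 258 and 242 CPM in the mutant, steady in each genotype and about 3-fold apart. The log2 difference was -1.58 ± 0.07 (edgeR, adjusted p = 0.000881), and it was -1.55 and -1.60 with shifts of 2 h and 4 h. *C30G12.2* likewise differed with no overlap, at 79.1, 59.9, 49.5 and 55.9 CPM in wild type against 28.9, 22.1, 22.7 and 29 CPM in the mutant (log2 difference -1.24 ± 0.11). *ctsa-4.1*, a serine carboxypeptidase relative of cathepsin A, fell from 51.8, 47, 43.1 and 47 CPM to 22, 19.9, 19.1 and 24.6 CPM (log2 difference -1.14 ± 0.09). In both genes the hours differed less than the genotypes did.

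*twnk-1*, which encodes a relative of the mitochondrial DNA helicase Twinkle, had 26.9, 15.4, 7.02 and 7.02 CPM in wild type and 7.8, 4.73, 3.18 and 3.88 CPM in the mutant (log2 difference -1.45 ± 0.19, edgeR adjusted p = 0.0143). The mutant was lower in each pair, with slight overlap between the first mutant and the last wild-type libraries. Of the other large decreases *nspb-6*, *oac-32* and *Y58A7A.5* had differences of -2.23, -1.65 and -1.33. *pmp-5*, an ABC transporter of the peroxisomal half-transporter family, was among the most precisely measured, with a difference of -0.55 ± 0.05 and levels of 580.3, 416, 329 and 433 CPM in wild type against 389, 274, 232 and 302 CPM in the mutant.

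**Figure D2:**
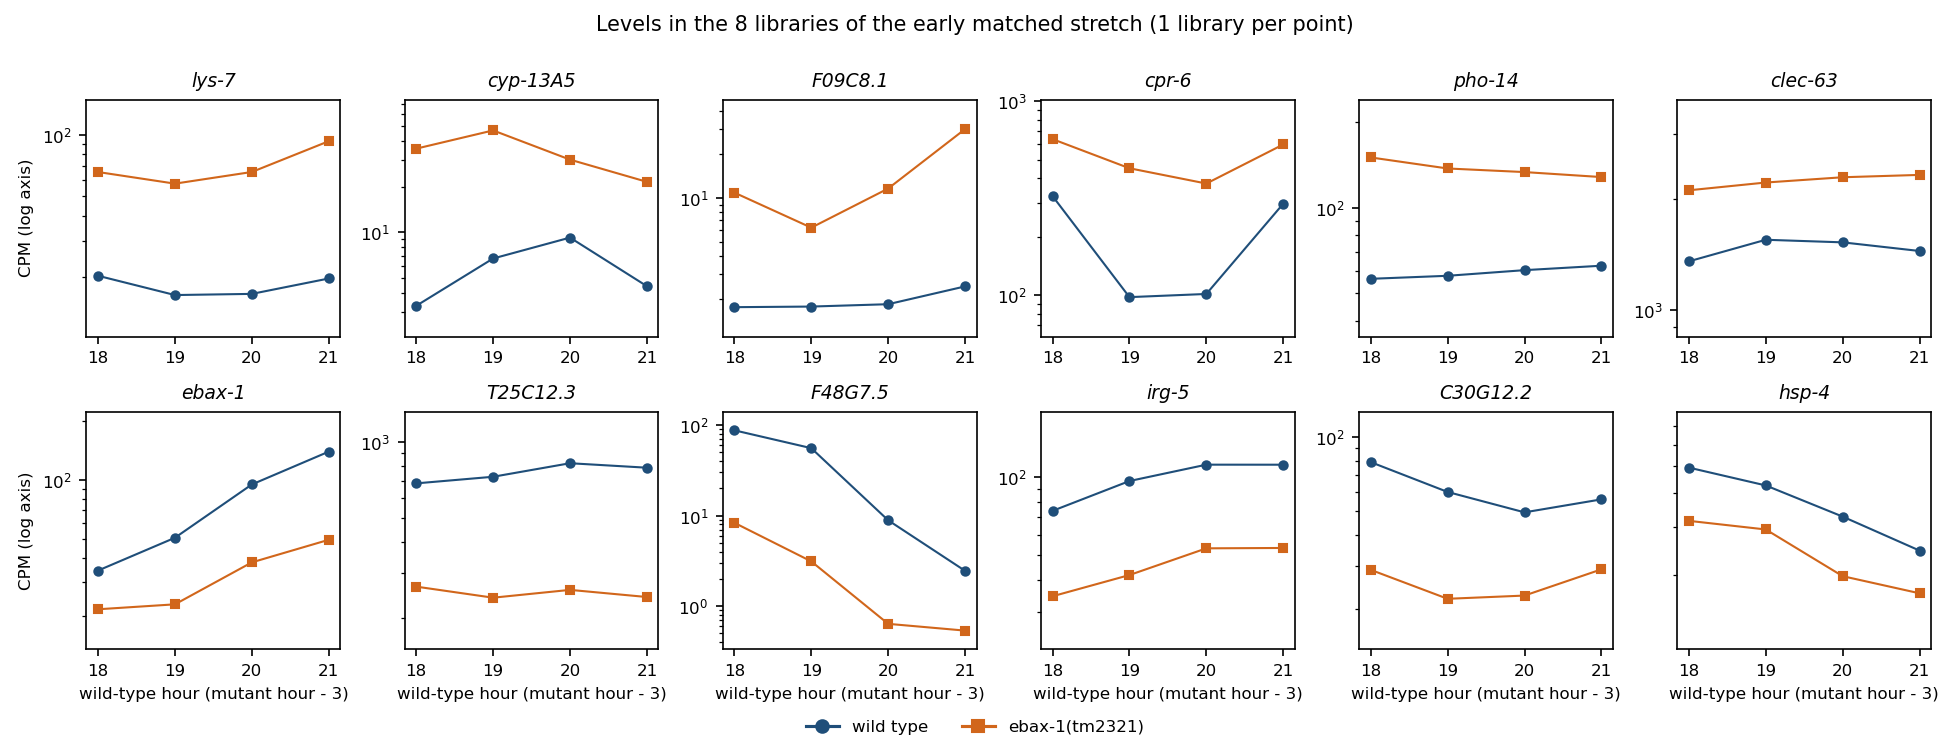
Levels of 12 genes in CPM (log axis) against the wild-type hour, with the mutant plotted 3 h earlier than it was collected. Each point is a library, circles are wild type and squares *ebax-1(tm2321)*. The upper row holds genes called higher in the mutant and the lower row genes called lower, and the mutant lies on the same side of wild type at each of the 4 hours.

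C-type lectins are secreted carbohydrate-binding proteins, many of them made in the intestine and induced by bacteria. Of 80 lectin genes tested 21 were higher and 3 lower in the mutant (30.0% of the list against 5.42% of all genes), with a list median of 0.40 against 0.02 for all genes. *clec-63*, the most abundant of the called lectins, had 1355, 1550.2, 1525 and 1445 CPM in wild type and 2110.1, 2215, 2289 and 2323 CPM in the mutant. The 4 mutant libraries were all above the 4 wild-type libraries, with a log2 difference of 0.61 ± 0.04 (edgeR, adjusted p = 0.00333). *clec-60* had 2.01, 0.593, 2.22 and 4.41 CPM in wild type and 3.58, 4.11, 9.7 and 21.9 CPM in the mutant, higher in each pair (log2 difference 1.97 ± 0.29). *clec-42* (1.89), *clec-209* (WBGene00018910, 2.22) and *clec-61* (2.52, at 0 to 1.01 CPM in wild type) had differences of similar size. The lectins that were lower were *clec-5* (-0.80), *clec-51* (-0.62) and *clec-47* (-0.42). Leaving out pairs in turn gave 2 to 22 higher and 0 to 3 lower lectins.

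Of 69 genes of antimicrobial and infection responses 16 were higher and 3 lower (27.5% of the list against 5.42% of all genes), with a list median of 0.10. Besides *lys-7*, the higher genes included saposin-like *spp* genes, whose products can permeabilize bacterial membranes. *spp-18* had 9.18, 10.5, 20.3 and 18.3 CPM in wild type and 35.4, 39.1, 40.5 and 48.2 CPM in the mutant, with no overlap (log2 difference 1.52 ± 0.17, edgeR adjusted p = 0.00902). *spp-13*, *spp-15* and *spp-2* were higher by 1.39, 1.26 and 1.18 log2, and the lysozymes *lys-8* and *lys-2* by 0.56 and 0.55. The peptide genes *nlp-34*, *nlp-27* and *nlp-33*, whose products are antimicrobial peptides of the epidermis, were higher by 1.27, 0.84 and 0.70 log2.

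The 3 genes of this list that fell are infection response genes of the intestine. *irg-5* had 74.1, 96.6, 112 and 112 CPM in wild type and 34.7, 41.9, 53.1 and 53.3 CPM in the mutant, and the groups did not overlap (log2 difference -1.11 ± 0.06, edgeR adjusted p = 0.00155). *irg-1*, known to be induced when translation is blocked, had 5.28, 36.7, 40.2 and 12.7 CPM in wild type and 3.71, 17.3, 7.31 and 4.42 CPM in the mutant. It peaked in the middle hours of both genotypes and was lower in the mutant in each pair (log2 difference -1.47 ± 0.28). *irg-4* had a log2 difference of -0.73.

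Cytochrome P450 enzymes oxidize lipids, hormones and foreign compounds. Of 50 tested 9 were higher (18.0% against 5.42% of all genes) and 0 lower, the latter also in DESeq2 and limma, and the list median was 0.30. *cyp-13A5* had 3.27, 6.72, 9.23 and 4.41 CPM in wild type and 35.7, 47.1, 30.2 and 21.5 CPM in the mutant, a log2 difference of 2.50 ± 0.26 (edgeR, adjusted p = 0.00701) with wide separation in each pair. *cyp-13A7* (2.63) and *cyp-37B1* (2.81) rested on few counts, at 0.198 to 0.629 CPM and at 0 to 1.26 CPM in wild type. *cyp-25A1* and *cyp-25A2* were higher by 1.53 and 0.93. The conjugating glucuronosyl and glutathione transferases did not share this direction, as 3 of 90 were higher and 4 lower (7.78% against 5.42% of all genes), with a median of -0.01. *ugt-52* was higher (1.78) and *ugt-29* lower, at 52.1, 113, 86.5 and 28.3 CPM in wild type and 31.5, 48.8, 28.8 and 19.7 CPM in the mutant (log2 difference -1.03 ± 0.17).

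Genes of lipid use were mostly raised where they were called. A list of 59 genes of fatty acid desaturation and beta-oxidation, which also held lipase genes, had 7 higher and 2 lower. This is 15.3% against 5.42% of all genes, with a list median of 0.04. The lipase genes *lipl-1*, *lipl-2* and *lipl-5* were among the higher ones. *lipl-1*, a lysosomal lipase, had 1.51, 2.96, 7.38 and 4.25 CPM in wild type and 6.91, 8.47, 21.8 and 36.4 CPM in the mutant, higher in each pair by 2.11 ± 0.28 log2 (edgeR, adjusted p = 0.0143). *lipl-2* differed by 2.11 and *ech-9*, an enoyl-CoA hydratase relative, by 1.77. *acox-3*, an acyl-CoA oxidase of peroxisomal beta-oxidation, stood at 105, 113, 83.8 and 50 CPM in wild type and 201, 235, 174 and 71.1 CPM in the mutant (log2 difference 0.90 ± 0.10), and the acyl-CoA synthetase *acs-7* followed the same course (0.83 ± 0.12). *acs-2*, a mitochondrial acyl-CoA synthetase, and *ech-6* were lower, at -0.58 and -0.36.

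Of 16 lipid-binding proteins 3 were higher and 1 was lower (25.0% against 5.42% of all genes). *lbp-8*, a lysosomal lipid chaperone, had 0.755, 0.198, 0.985 and 0.653 CPM in wild type and 4.6, 4.11, 6.68 and 8.3 CPM in the mutant, a log2 difference of 3.09 ± 0.30 (edgeR, adjusted p = 0.00637), with few counts behind the wild-type values. *far-3*, a fatty acid and retinol binding protein, differed by 3.15 at 0.163 to 0.629 CPM in wild type. The abundant *lbp-6* was lower, at 601, 488, 421 and 429 CPM in wild type against 396, 372, 304 and 291 CPM in the mutant (log2 difference -0.51 ± 0.06), without overlap.

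Of 21 proteases of the gut and lysosome 7 were higher and 1 was lower (38.1% of the list against 5.42% of all genes). *cpr-6*, a cathepsin B-like protease, had 324, 97.8, 102 and 296 CPM in wild type and 637, 451, 376 and 598 CPM in the mutant. Both genotypes dipped in the middle of the stretch, and the dip was deeper in wild type (log2 difference 1.51 ± 0.21, edgeR adjusted p = 0.0165). *cpz-1*, a cathepsin Z homologue, had nearly the same shape, with 176, 51.2, 60.3 and 166 CPM in wild type and 372, 235, 179.8 and 333 CPM in the mutant (log2 difference 1.44 ± 0.19). The cathepsin L homologue *cpl-1*, *cpr-4* and the aspartyl protease *asp-4* were higher by 0.89, 0.81 and 0.57. *cpr-8* was the exception, with 10.8, 12.8, 19 and 24.7 CPM in wild type and 6.52, 7.1, 10.3 and 10.8 CPM in the mutant (log2 difference -0.92 ± 0.13).

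Of 18 outputs of insulin signalling, genes that respond to the FOXO factor DAF-16, 6 were higher and 1 lower (38.9% against 5.42% of all genes), with a median of 0.46. The list was not split by the direction of that response, so the median gives no direction of the pathway. *dod-22* had 8.68, 20, 23.4 and 15.8 CPM in wild type and 28, 43.5, 51.3 and 37.3 CPM in the mutant, without overlap (log2 difference 1.28 ± 0.11, edgeR adjusted p = 0.00519). *sip-1*, a small heat shock protein relative, had 24.7, 30.4, 33.6 and 27.6 CPM in wild type and 47.3, 55.7, 66.8 and 67.7 CPM in the mutant, also without overlap (log2 difference 1.02 ± 0.09). *ges-1*, a gut esterase, was higher by 0.73, the catalase *ctl-1* by 0.69, the gluconeogenic enzyme *pck-1* by 0.47 and the glyoxylate enzyme *icl-1* by 0.39, while *dod-17* was lower (-0.57). Of 19 insulin-like peptides *ins-35* was the only gene called, which is 5.26% of the list, near the 5.42% of all genes. It had 9.43, 5.14, 5.05 and 6.21 CPM in wild type and 16.9, 15, 9.38 and 14.2 CPM in the mutant (log2 difference 1.09 ± 0.16).

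Genes of the cuticle and the molt moved strongly with the hour. Of 101 collagens tested 2 were called higher and 3 lower, 5 in all. This is 4.95% of the list against 5.42% of all genes, although the list median was 0.31. That median became 0.63 with a 2 h shift and -0.15 with a 4 h shift, so its direction depended on the matching of hours. DESeq2 called 19 collagens higher and 0 lower, and limma 12 and 1. *col-176* had 1.64, 11.5, 38.8 and 35.8 CPM in wild type and 16.50, 54.1, 97.3 and 86.6 CPM in the mutant (log2 difference 1.74 ± 0.26), and *lon-3*, a collagen that affects body length, 36.1, 13.8, 17.8 and 226 CPM and 63.3, 35.5, 60.1 and 349.8 CPM (log2 difference 1.08 ± 0.18). *col-61* was lower (-0.998).

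Of 23 genes of molting and the apical matrix 2 were higher (8.70% of the list against 5.42% of all genes) and 0 lower in edgeR. DESeq2 and limma also called 0 lower. Of the 23 genes 22 had a positive difference (median 0.52, which was 0.15 with a 2 h and 1.01 with a 4 h shift). *nas-37*, an astacin protease needed to shed the old cuticle, had 20.5, 14.4, 43.7 and 263 CPM in wild type and 32.4, 27.2, 91.7 and 386 CPM in the mutant (log2 difference 0.79 ± 0.10), which was 0.21 at a 2 h shift. *mlt-9* differed by 0.70. Of 56 hedgehog-related and Patched-related genes, whose products act in the epidermis and its matrix, 7 were higher and 1 lower (14.3% against 5.42% of all genes, median 0.32). *wrt-4* had 12, 2.96, 1.72 and 33.6 CPM in wild type and 23.7, 11, 9.85 and 76.1 CPM in the mutant (log2 difference 1.39 ± 0.21), and *wrt-2*, *grl-10* and *wrt-1* were higher by 1.29, 1.11 and 1.08. *ptr-13* was lower (-0.63). Of 56 *abu* and *pqn* genes of the pharyngeal cuticle 2 were higher and 0 lower in edgeR. That is 3.57% of the list, below the 5.42% of all genes. DESeq2 called 3 higher and 1 lower, and limma 4 and 0.

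The genes that were lower were many and the steps small. The mitochondrial ribosome, which translates the proteins encoded in mitochondrial DNA, had 14 of 69 protein genes lower (20.3% against 2.58% of all genes) and 0 higher, and 0 of the 69 had a positive difference (median -0.24). The count fell to 3 lower in DESeq2, 4 in limma and 2 with total counts, where the median was -0.18. *mrps-14* had 96.1, 95.2, 93.4 and 90.8 CPM in wild type and 71, 63.2, 62.8 and 64.2 CPM in the mutant, with a clear gap between the groups (log2 difference -0.52 ± 0.06, edgeR adjusted p = 0.0109). *mrpl-45* had 58, 59.9, 50.1 and 50.8 CPM in wild type and 48.2, 38.9, 36.7 and 37.6 CPM in the mutant (log2 difference -0.44 ± 0.08), and *mrps-28* differed by -0.41.

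Of 79 proteins of the cytosolic ribosome 7 were lower (8.86% against 2.58% of all genes) and 0 higher, with a median of -0.12. With total counts, in DESeq2 and in limma 0 of them were called, and 12 in DESeq2 and 31 in limma had an unadjusted p under 0.05. *rps-12* had 1510.0, 1589, 1552 and 1531 CPM in wild type and 1355, 1314, 1273 and 1409 CPM in the mutant, in groups that did not overlap (log2 difference -0.21 ± 0.05, edgeR adjusted p = 0.049). Another 3 genes were chosen after their values were seen. *fib-1*, the rRNA methyltransferase fibrillarin, had 838, 805, 753 and 767 CPM in wild type and 648, 634, 589 and 638 CPM in the mutant (log2 difference -0.33 ± 0.05), and the nucleolar genes *nol-58* and *dkc-1* differed by -0.34 and -0.36. Of 42 genes of oxidative phosphorylation *atp-3* alone was called (-0.21), 2.38% of the list. Of 21 genes of the vacuolar ATPase *vha-11* alone was called (-0.23), 4.76% of the list. Over all genes 5.42% were called in either direction. Neither list had a call with total counts, DESeq2 or limma. Of 33 proteasome genes 0 were called in edgeR (2 with an unadjusted p under 0.05), in DESeq2 and in limma.

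Of 17 markers of body wall muscle 6 were lower (35.3% against 2.58% of all genes) and 0 higher, with a median of -0.19. Only 2 were lower with total counts, in DESeq2 and in limma. *unc-54*, the main muscle myosin heavy chain, had 6716, 7629.6, 7649 and 7467 CPM in wild type and 5477, 5562, 5435 and 5386 CPM in the mutant. The genotypes did not overlap, and the difference of -0.43 ± 0.04 log2 (edgeR, adjusted p = 0.0063) was about the same with shifts of 2 h (-0.41) and 4 h (-0.44). The troponin C gene *pat-10* and the muscle protein gene *dim-1* differed by -0.25 and -0.26. The summed level of the 17 markers was 24812 to 27531 CPM in wild type and 22524 to 23305 CPM in the mutant.

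The other tissues a whole larva holds were described by marker lists in the same way. Of 16 intestinal markers 25.0% were called against 5.42% of all genes, 2 higher (*cpr-1* and *ges-1*) and 2 lower, *ifb-2*, an intermediate filament gene of the gut (-0.49 ± 0.08), and the microvillar actin gene *act-5* (-0.31). Their summed level was 9359 to 10706 CPM in wild type and 8713 to 9223 CPM in the mutant, with a median difference of -0.21, while the lectins, proteases and P450 genes named above rose, and the part of this level in their values was not tested. Of 20 neuronal markers *unc-18* and *egl-3*, both of the secretory pathway of neurons, were lower (10.0% against 2.58% of all genes). Their log2 differences were -0.36 and -0.25. Of 13 epidermal markers *vab-10* alone was called (-0.24), 7.69% of the list against 5.42% of all genes. With total counts, in DESeq2 and in limma 0 were called lower, and DESeq2 and limma each called 1 marker higher. Of 25 germ line markers 0 were called, with 4 at an unadjusted p under 0.05, and summed levels were 1070 to 1317 CPM in wild type and 1095 to 1294 CPM in the mutant. DESeq2 called 0 and limma 1 of them. Of 80 sperm genes only 9 passed the filter on low counts, and of 14 genes of yolk and oocytes 9 did, with 0 calls in edgeR, DESeq2 and limma in either list and 1 and 0 at an unadjusted p under 0.05 in edgeR.

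*hsp-4*, the BiP chaperone of the endoplasmic reticulum and a readout of the unfolded protein response, was lower, with 494, 425, 327 and 246 CPM in wild type and 316, 294, 198 and 171 CPM in the mutant. It fell through the stretch in both genotypes and was lower in the mutant in each pair (log2 difference -0.61 ± 0.06, edgeR adjusted p = 0.00637). *hsp-90*, *sti-1* and *crt-1* differed by -0.27, -0.25 and -0.19. These were the 4 calls, in 14.3% of 14 cytosolic heat shock genes and in 11.8% of 17 chaperones of the endoplasmic reticulum and mitochondria. Over all genes 2.58% were lower. With total counts, in DESeq2 and in limma 1 gene of each list was called, and it was lower.

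Genes close to the known roles of EBAX-1 were then examined. Of 7 genes of its ligase and known substrate *ebax-1* was the only call. The scaffold *cul-2* differed by 0.03 ± 0.07, the Elongin genes *elc-1* and *elb-1* by -0.06 and -0.03, and the receptor *sax-3* by 0.27 ± 0.09 with an edgeR adjusted p of 0.132. Of 15 genes of the microRNA machinery 0 were called in edgeR, DESeq2 or limma, and 2 had an unadjusted p under 0.05 in edgeR. The most abundant of them, *tsn-1*, had 552, 389, 434 and 661 CPM in wild type and 422, 413, 453 and 598 CPM in the mutant. The 2 main microRNA Argonautes *alg-1* and *alg-2* had differences of -0.03 ± 0.06 and -0.20 ± 0.08. Of 14 Argonautes of other small RNAs 21.4% were called against 5.42% of all genes. *sago-1* was higher (0.45), and *prg-1*, the Argonaute of piRNAs, and *wago-4* were lower (-0.27 and -0.42). The 2 lower genes were both at adjusted p = 0.0414 in edgeR, and neither was called with total counts, in DESeq2 or in limma.

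Of 12 microRNA targets known from genetics 0 were called in edgeR, DESeq2 or limma, and 2 had an unadjusted p under 0.05 in edgeR. *lin-41*, the *let-7* target, had 267, 258, 270.2 and 204 CPM in wild type and 254, 241, 209 and 164 CPM in the mutant. The mutant was lower in each pair, and the difference did not pass the test (log2 difference -0.21 ± 0.07, edgeR adjusted p = 0.133). *lin-14*, the *lin-4* target, differed by 0.002 ± 0.08, and *hbl-1* by 0.33 ± 0.15. Of 14 heterochronic genes, which set the identity of larval stages, and of 10 transcription factors of the oscillator 0 were called in edgeR, DESeq2 and limma, with 2 in each list at an unadjusted p under 0.05 in edgeR. The period homologue *lin-42* had 100.4, 77.8, 178 and 637 CPM in wild type and 94.5, 104, 236 and 588 CPM in the mutant (log2 difference 0.15 ± 0.11). *nhr-23*, a driver of the molting cycle, differed by 0.21 ± 0.14, *grh-1* by 0.33 ± 0.19 and *blmp-1* by 0.16 ± 0.12.

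The remaining lists held few calls in number. Of 17 acyltransferases of the *oac* family 1 was higher and 2 were lower, 17.6% of this short list against 5.42% of all genes. Of 183 nuclear hormone receptors 5 were higher and 1 lower, 3.28% of the list against 5.42% of all genes, led by *nhr-178*, *nhr-193* and *nhr-57* (1.90, 1.26 and 1.205). Of 86 neuropeptide genes 4 were higher, all of them *nlp* genes of the antimicrobial group named above, and 1 was lower (5.81% of the list). Of 43 transthyretin-like genes 2 were higher and 1 lower, 6.98% of the list (*ttr-29* 0.94, *ttr-45* 0.53 and *ttr-22* -1.88). Of 127 F-box and MATH-BTB genes *math-45* alone was called and was higher (1.93), 0.787% of the list. Of 14 guidance receptors and ligands *unc-115* was lower (-0.28), 7.14% of the list. This call was made neither with total counts nor in DESeq2 or limma. The core histones, the genes of DNA replication and the cell cycle, and the tubulins had 0 calls of 14, 27 and 16 in edgeR, with 1, 2 and 5 at an unadjusted p under 0.05, and 0 in DESeq2, while limma called 1, 0 and 1.

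**Figure D3:**
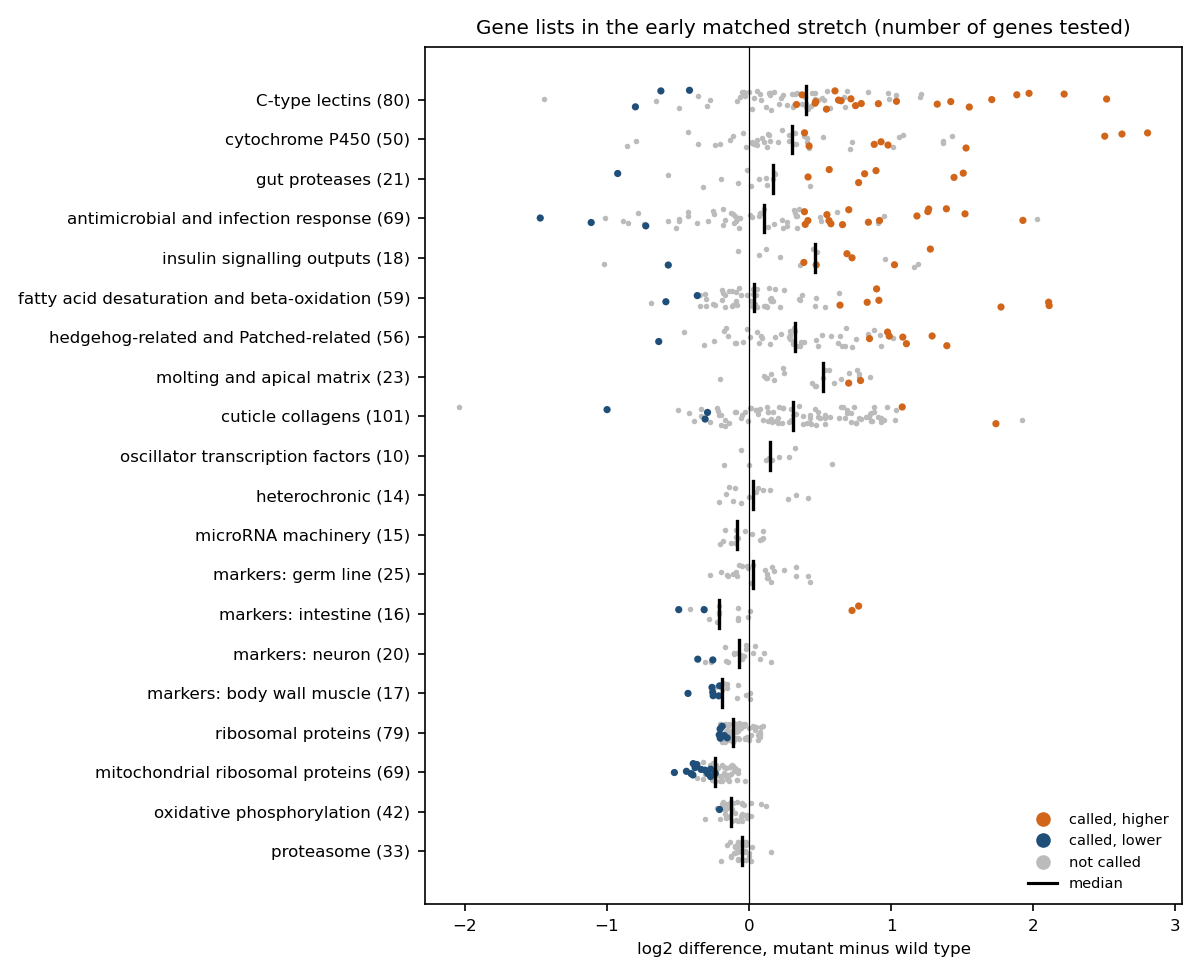
Log2 difference, mutant minus wild type, of each tested gene in 20 of the 42 lists. Coloured points are genes called in edgeR, grey points are not called, and black bars are list medians. C-type lectins, P450 enzymes and gut proteases spread to the right, the collagens lie on both sides of their median of 0.31, and the mitochondrial ribosomal proteins all lie left of 0.

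How fast genes moved with the hour was measured as a slope, fitted over the 4 hours in each genotype. In wild type 606 genes rose (4.95% of 12236) and 866 fell (7.08%), and in the mutant 209 rose (1.71%) and 315 fell (2.57%). Of these 191 rose and 303 fell in both, and 0 moved in opposite directions. Across the 12236 genes the slopes of the genotypes had r = 0.87, and the regression of mutant on wild-type slope had a coefficient of 0.63. Genes share libraries here, and the errors of the wild-type slopes lower this coefficient. The log2 differences regressed on the mean slopes gave a coefficient of 0.12 h, where a positive sign stands for a mutant ahead of its paired hour. No error was estimated for it, and lists went both ways. The rising molting list and the falling collagens (median wild-type slopes 0.85 and -0.74) both had positive median differences (0.52 and 0.31). Whether a single offset describes the stretch was not tested. For 618 of the 663 called genes the genotype difference was larger than the steeper of the 2 hourly slopes. These genes were called for their difference in the same 8 libraries, and the share over all genes is not given. The count is therefore no test of the matching of hours.

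Whether the difference itself changed over the 4 pairs was tested with an interaction of genotype and hour. It changed in 135 of 12236 genes (1.1%), rising toward the mutant in 101 and falling in 34, and 5 of these genes were also among the 663. Collagens made up 22 of the 135, with 20 rising and 2 falling among 101 tested, where 1.1% of all genes changed. Of 56 *abu* and *pqn* genes 10 rose and 0 fell. Of 56 hedgehog-related and Patched-related genes 6 rose and 2 fell. The molting and apical matrix list went more the other way, with 2 rising and 5 falling of 23 genes. *ram-2*, a gene needed for the shape of the male tail rays, had 3534, 1964, 473 and 105 CPM in wild type and 2677, 1923, 733 and 249.6 CPM in the mutant. It fell in both genotypes and less steeply in the mutant, so that the difference went from below to above 0, by 0.56 ± 0.04 log2 per hour (edgeR, adjusted p = 0.00765). *col-156* had 239.8, 88.5, 10.5 and 3.43 CPM in wild type and 166, 110.3, 26.4 and 18.9 CPM in the mutant, a change of 0.97 ± 0.07 per hour, and *R12E2.7* changed by 0.95 per hour.

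Genes that rose through the stretch showed the mirror image. *col-149* had 8.93, 57.7, 545 and 1456 CPM in wild type and 24.7, 121, 481 and 772 CPM in the mutant. The mutant started higher and ended lower, with a change of -0.87 ± 0.07 log2 per hour (edgeR, adjusted p = 0.00784). *F57H12.6* had 3.27, 9.88, 31.3 and 63.9 CPM in wild type and 34.8, 46.6, 77.6 and 93.9 CPM in the mutant, and *amt-4*, an ammonium transporter relative, 9.56, 18.2, 58 and 94.9 CPM and 40.2, 44.5, 60.1 and 65.6 CPM. Their differences changed by -0.91 ± 0.08 and -0.90 ± 0.08 per hour. Among the microRNA targets *nhr-91* changed in this way, by -0.36 per hour (edgeR, adjusted p = 0.0454), from 20.8 to 123 CPM in wild type and from 33.1 to 90.6 CPM in the mutant, and among the oscillator factors *myrf-1* did (-0.32, adjusted p = 0.0269).

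**Figure D4:**
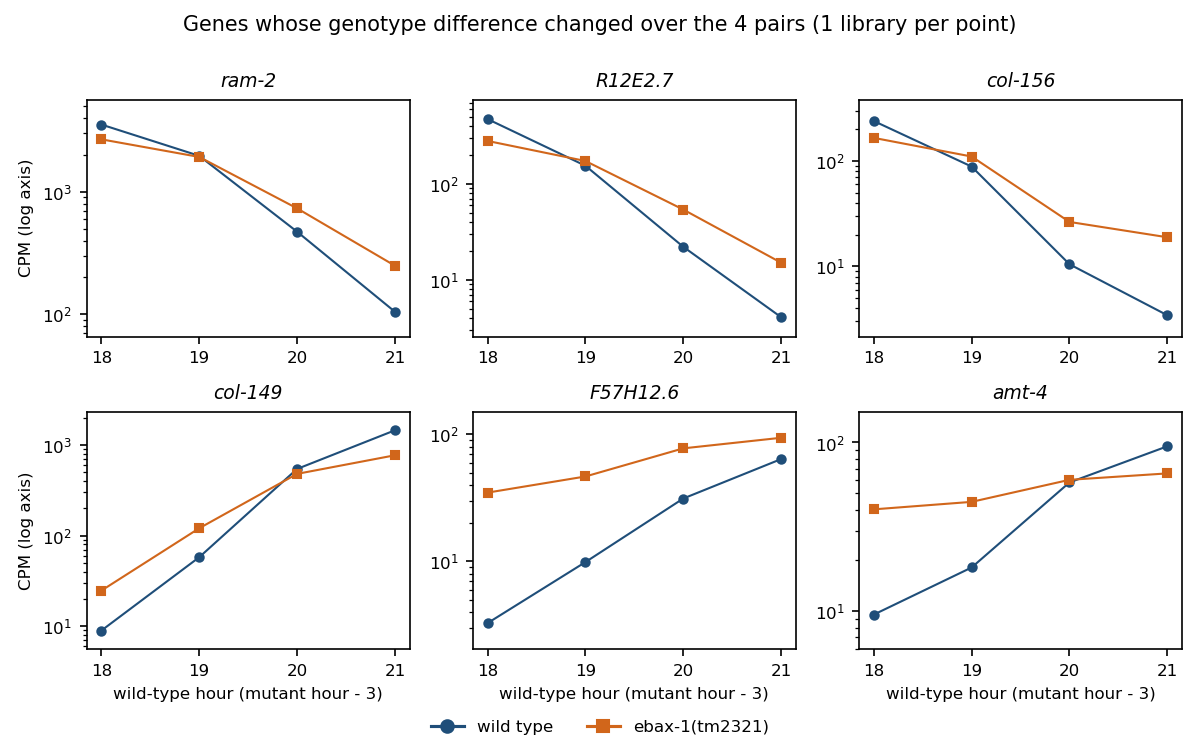
Levels of 6 genes in CPM (log axis) against the wild-type hour, with the mutant plotted 3 h earlier than it was collected and a library per point. In the upper row the genes fall less steeply in the mutant than in wild type, and in the lower row they rise less steeply, so the lines of *ram-2*, *R12E2.7*, *col-156*, *col-149* and *amt-4* cross.

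The early differences were set beside those of the later matched stretches, which share no library with them. In the late stretch (wild type 25 to 28 h, 4 pairs) 2091 of 12600 genes were called (16.6%), and in the middle stretch (22 to 24 h, 3 pairs) 96 of 12099 (0.793%). Of the 663 genes called early 656 had a late value, and 649 of these had the same sign (98.9%, against 75.4% of all genes). Of the 663, 536 were called late with the same sign, which is 80.8% of the early and 25.6% of the late calls, and 3 were called with the opposite sign. In the middle stretch 601 of 645 had the same sign (93.2%, against 69.1% of all genes) and 64 were called (9.65% of the early and 66.7% of the middle calls). Each genotype's stretches come from the same time course, so that this is no independent repeat of the comparison.

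**Figure D5:**
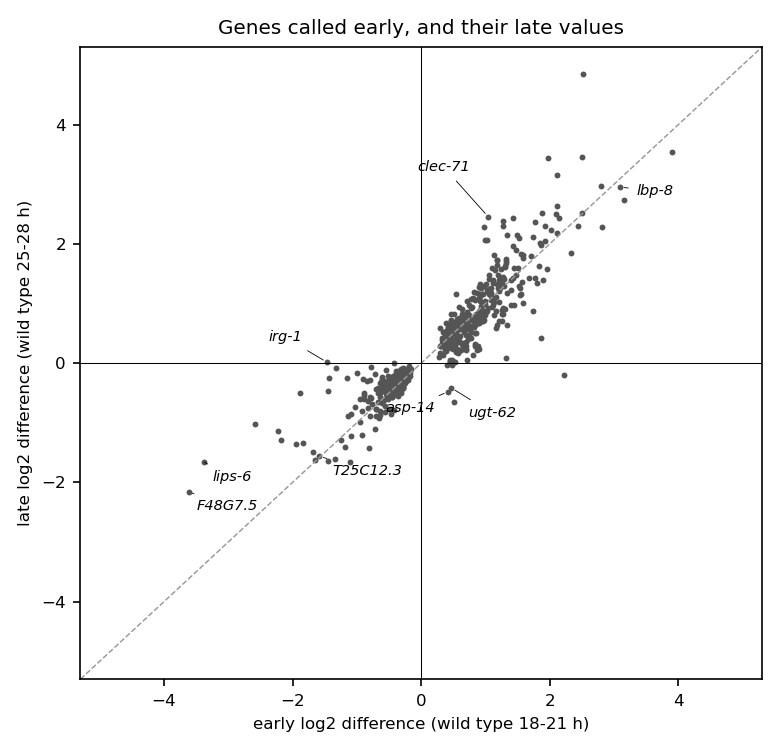
Log2 difference, mutant minus wild type, in the early stretch (x axis) and in the late stretch (y axis) for the 656 genes called early that have a late value, with the line of equality dashed. Of these, 649 lie in the lower left or the upper right of the plot, and *asp-14* and *ugt-62* are among the few with opposite signs.

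A difference between stretches was tested with an interaction of genotype and stretch over 11 pairs. Early and late differed in 4 of 12094 genes (0.0331%), with 679 at an unadjusted p under 0.05. The count was 0 without the early pair of 19, 20 or 21 h and 7 without that of 18 h. *asp-14*, an aspartyl protease, was higher in the mutant early and lower late. Early it had 99.9, 85.6, 78.4 and 74.3 CPM in wild type and 119.6, 128, 108 and 96.1 CPM in the mutant, and its early difference exceeded the late one by 0.90 ± 0.11 (edgeR, adjusted p = 0.0186). *ugt-62* turned in the same direction, from 0.48 early to -0.41 late (difference 0.89 ± 0.12, edgeR adjusted p = 0.0349), as did *dod-24*, from 0.22 to -0.48 (difference 0.70, adjusted p = 0.0416). *clec-71* was higher in the mutant in both but less so early, 1.05 against 2.46 (difference -1.42 ± 0.20, adjusted p = 0.0356).

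Early and middle differed in 1 gene (0.00827%), with 1056 at an unadjusted p under 0.05. This was *hsp-4*, with a log2 difference of -0.60 early and level in the middle stretch (0.01), a difference of -0.61 ± 0.07 (edgeR, adjusted p = 0.0198). Without the pair of 20 h 0 genes were called, and without those of 18 h or 21 h 4 or 9 were. No other gene passed. In this fit *acox-3* stood at 0.91 early and at -0.31 in the middle stretch, *acs-7* at 0.84 and -0.36, *dhs-18* at 0.48 and -0.33, and *maoc-1* at 0.48 and -0.24, each at adjusted p = 0.0741 in edgeR, as were *clec-71*, *nlp-34* and *F33D4.6*. *ins-13* and *acdh-2* had nearly equal levels, with 19.9, 61.4, 46.9 and 20.1 CPM and 20.1, 61.6, 47.6 and 21.1 CPM in wild type, and may share reads, so they are not read as separate genes, and neither passed the test.

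Called genes were found on all 6 chromosomes, at 3.74% of the genes tested on I, 6.09% on II, 4.24% on III, 5.62% on IV, which carries *ebax-1*, 7.25% on V and 5.63% on X. Against 5.42% over all genes, chromosome V held the largest share, with 111 higher and 62 lower genes, and chromosome I the smallest, with 21 higher and 52 lower.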

How the data were processed

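Raw counts per gene were deposited for 28 libraries. According to the study's methods and the labels, the authors aligned the reads to the ce10 genome with HISAT2 through QuasR and counted the first read of each pair on the opposite strand over exons of the WS220 annotation. The handling of reads with several matches is not given in the sources used here. Values of close family members and of overlapping genes are therefore uncertain. The deposited log2 values are the same counts scaled by the authors to the mean library total with a pseudocount of 8, and recomputing them gave a largest difference of 0.0005. The table held 20392 genes, of which 2791 had no count in the 8 libraries used here, and 19182 were named by the table. No other column of sample values was left aside (0).

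The counts were tested with edgeR (version 4.0.16 in R 4.3.3) with the filterByExpr filter, TMM scaling, a quasi-likelihood fit of pair plus genotype and Benjamini-Hochberg adjustment over all genes tested, at a threshold of 0.05. With 8 libraries the fit had 3 residual degrees of freedom. The pairs come from the matched hour (3 h shift), not from replicate numbers. With a single time course per genotype, p-values measure only the scatter between hourly pairs. Slopes, the change of the difference over the 4 pairs, and the early, middle and late stretches (11 pairs, 8 residual degrees of freedom) were fitted in the same way. Fold changes are on edgeR's log2 scale, and levels are TMM-scaled CPM.

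DESeq2 1.42.0, limma 3.58.1 on the deposited log2 values, other scalings, filters, shifts and curves in hour, and leaving out each pair were tried as alternatives. The fitting code was tested on simulated data. Named genes were, by rule, *ebax-1*, the 12 with the largest log2 difference in each direction among called genes of at least 5 CPM with the same sign in 4 of 4 pairs, the 5 of lowest p in each direction of at least 50 CPM, up to 3 called members of each list of at least 1 CPM or else its most abundant member, the 5 of lowest p in each direction of the tests between stretches, and the 3 of lowest p in each direction of the test of change. Further members of the lists are named with their values after these were seen. The stretch, the lists and the tests were chosen with earlier results of these data known.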

Additional observations from a re-analysis of the deposited data

Results flagged for a closer look

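In wild type the log2(CPM + 0.5) of *F09C8.1* had a library that stood apart from the other 3, that of 21 h at 2.45 CPM, with a gap of 0.861 of the whole range. This was the only such value in 70 groups of 4 libraries looked at, and chance alone gives about 1 in 20 groups. The genotype difference changed over the 4 hours, by the test of the change itself, for *ram-2* (0.56 log2 per hour), *R12E2.7* (0.95), *col-156* (0.97), *col-149* (-0.87), *F57H12.6* (-0.91) and *amt-4* (-0.90).

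The genotype difference of the early stretch differed from that of the middle stretch for *hsp-4* (-0.61 log2) and from that of the late stretch for *asp-14* (0.90), *ugt-62* (0.89), *dod-24* (0.70) and *clec-71* (-1.42), each by an interaction test in edgeR. None of the late contrasts was called without the early pair of 19, 20 or 21 h (0 genes in each case). The antimicrobial peptide gene *nlp-34* differed by -1.65 between the early and the middle stretch and did not pass (edgeR, adjusted p = 0.0741).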

How the results depend on the processing

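The 91 called genes of the naming rule that were followed kept their direction in each alternative that gave them a value. Genes named only by the tests between stretches or of change were not followed in these fits. Leaving out a pair could hardly turn a direction, since nearly all called genes had the same sign in 4 of 4 pairs. The number of calls moved strongly. Against 663 calls, 347 higher and 316 lower, the fit without the block of pairs gave 38 (24 and 14), a 2 h shift 6 (3 and 3), a 4 h shift 8 (4 and 4) and an adjusted p under 0.01 gave 65 (44 and 21). A spline over 11 pairs gave 2162 (1139 and 1023). The higher calls were 530 in limma, and the lower calls were 175 in DESeq2, 173 in limma and 146 with total counts. Leaving out each pair in turn gave 36 to 992 calls, 29 to 580 higher and 7 to 412 lower. For early against middle it gave 0 to 9 genes against 1, and for early against late 0 to 7 against 4. Among genes of little hourly change, an alternative chosen after seeing the data, 370 were called, 129 of them higher. The change of the difference, in limma, likewise added afterwards, was called in 87 genes against 135. The causes of these shifts were not tested. Depth limits genes near 1 CPM, where a library holds 5.06 to 8.13 counts.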
